A study of Mus musculus with 14 samples.

Results

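The decay of mRNA in wild-type (WT) mouse embryonic stem cells (mESCs) was followed in 3 RNA-seq libraries, which are the WT libraries of the actinomycin D time course and 3 of the 14 samples of the series. They were chosen by their labels alone, as the WT cells that had been in 5 µg/ml actinomycin D for 0, 4 or 8 h. The series compared WT mESCs with mESCs in which an arginine of METTL14, a subunit of the enzyme that writes N6-methyladenosine (m6A) on mRNA, was changed to lysine, and the mutant libraries were not used here. The question taken up here is which transcripts of WT cells disappeared, which fell slowly and which gained share in the library when transcription was blocked. The cells were E14Tg2a, an mESC line grown without feeder cells on gelatin in medium with serum and LIF, and polyadenylated RNA was sequenced. All 3 times come from this 1 line and each time has 1 library, so no difference between times has a replicate check, no test was made, and every interval below covers counting error only. Strand and copy matter as well: the library kit is not stated to mark strand, so overlapping genes on opposite strands cannot be told apart, and reads of near-identical copies of a gene cannot be assigned with certainty.

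Actinomycin D binds DNA and stops RNA polymerases, so that after its addition a transcript can only persist or be degraded. Most mRNAs are degraded after deadenylases shorten the poly(A) tail, and sequences in the 3'UTR set the pace: AU-rich elements, bound by the TTP (Zfp36) family, and Pumilio elements recruit deadenylases, and m6A does so through YTH domain proteins. Genes that switch quickly, such as immediate early genes, are known for unstable mRNAs, whereas mRNAs for ribosomes and metabolic enzymes are known for stable ones.

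A level here is the FPKM of a gene, computed from its count, its exon length and the summed counts of the library, and it is given as a percent of the gene's own FPKM at 0 h. The levels are not tied to an added RNA standard, so a level is a share of the RNA that was left at each time, and 100% means that a transcript fell as much as the library as a whole. A transcript whose level is over 100% need not have increased per cell. The 0, 4 and 8 h libraries held 17428469, 14983213 and 13812160 counts. All 10 markers of embryonic stem cells were measured, with a summed FPKM of 3275 at 0 h and 2908 at 8 h. The 7 fibroblast markers summed to 1.66, the 5 endoderm markers to 5.37, the 4 mesoderm markers to 1.31 and the 4 ectoderm markers to 18.1 FPKM at 0 h, most of it *Sox1* at 13.4 FPKM, and the 4 markers of 2-cell-like cells had 0, 5 and 0 counts in all at 0, 4 and 8 h. *Lum*, *Postn* and *Afp* were at 0 at 0 h.

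Of 52459 genes in the table, 10448 had a mean FPKM of at least 1 and a mean count of at least 20 over the 3 libraries and were examined. Because the means span all 3 times, passing this filter depends in part on decay itself. It left out 1306 genes with an FPKM of at least 1 at 0 h, of which 414 were at or under 1/8 at 8 h. It took in 106 genes under that FPKM at 0 h, of which 24 were at or over 2 times at 8 h. The median level of the 10448 genes was 94.2% at 4 h and 72.8% at 8 h (95% interval over genes 70.7 to 75.3). At 8 h, 1526 genes (14.6%) were at or under 1/8 of their 0 h level, 4121 genes (39.4%) at or under 1/2, and 602 genes (5.76%) at or over 2 times that level. At 4 h these shares were 4.46%, 24% and 1.1%. These percents are the background for every count of genes below. With the filter applied to the 0 h library alone, the shares at 8 h were 17.3%, 44.2% and 4.86%. Here "lost" is used for a level of 1/8 or less at 8 h, "fell" for 1/2 or less (lost genes included), and "rose in share" for 2 or more. Of the lost genes, 463 were already at or under 1/8 at 4 h, 1056 lay between 1/8 and 1/2 at that time, and 7 were above 1/2. Of the 2595 genes that ended between 1/8 and 1/2, the larger part, 1618, were still above 1/2 at 4 h. For the 5525 genes that were under their 0 h level at both times, the half-life was computed as ln2 over the decay rate, the rate being the average of the rates from 0 to 4 h and from 0 to 8 h. The median half-life was 4.36 h, with quartiles of 2.38 and 9.50 h, and 29 genes had a half-life under 1 h. Like the levels, these half-lives describe shares of the RNA left, so they are relative to the library as a whole and not absolute. With levels scaled to the summed ribosomal protein genes, 8419 genes had a half-life, with a median of 4.90 h.

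**Figure D1:**
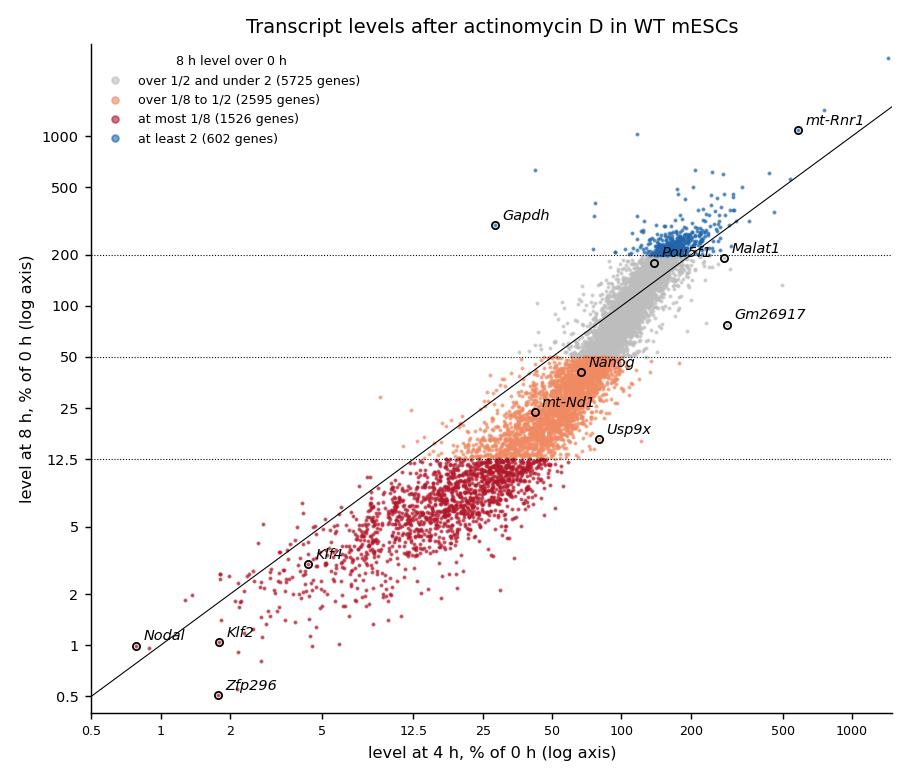
Level at 4 h (x axis) and at 8 h (y axis), each as a percent of 0 h on a log axis, for the 10448 genes examined. Each point is a gene, coloured by its level at 8 h, dotted lines mark 1/8, 1/2 and 2 times the 0 h level, and the diagonal marks equal levels at 4 and 8 h. Most genes that decayed lie below the diagonal, and Gapdh, at 28.3% and then 299%, stands far above it.

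The libraries became less diverse with time. The number of genes with an FPKM of at least 1 went from 11648 at 0 h to 10198 at 4 h and 9029 at 8 h. The 1000 genes with the most counts took 48.0%, 56.9% and 63.5% of all counts. The lost genes together held 10.1% of the counts at 0 h, 2.08% at 4 h and 0.721% at 8 h, and the genes that rose in share went from 3.40% to 7.47%. Zinc finger genes named Zfp went from 1.26% to 0.302% of the counts, and cytoplasmic ribosomal protein genes from 4.44% to 7.38%.

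How the libraries are scaled moves the border between falling and rising but not the order of the genes, because each scaling multiplies all levels of a library by the same factor. TMM factors multiplied the 8 h levels by 1.39 and put the median gene at 101%. Scaling to the summed ribosomal protein genes multiplied them by 0.602 and put the median gene at 43.8%. Scaling to the median gene multiplied them by 1.52. The share of genes at or under 1/2 was 32.3%, 54.2% and 30.4% under these 3 scalings, and the share at or over 2 was 22.2%, 0.354% and 26.8%. A level over 166% therefore exceeds that of the summed ribosomal protein genes, and levels between 65.7% and 166% change side with the scaling.

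The fastest losses left about 1% of the 0 h level or less. Among genes with at least 300 counts at 0 h, the 12 lowest at 8 h included *Zfp296*, *Stk17b*, *Cited2*, *Chac1*, *Orai1*, *Nodal*, *Pou3f1*, *Klf2*, *Trib1*, *Med18* and *Med26*, and all 12 were at or under 1.18% of their 0 h level. *Zfp296* (chromosome 7, 19577287 to 19580656 of mm10), a zinc finger gene expressed in pluripotent cells, had 1242, 19 and 5 counts at 0, 4 and 8 h, and its level was 1.78% at 4 h and 0.508% at 8 h (95% interval 0.165 to 1.19). *Klf2* (chromosome 8, 72319033 to 72321656), a Krüppel-like factor of the naive pluripotent state, was the most abundant of them, with 226 FPKM at 0 h. It had 7264, 112 and 60 counts, so that its level at 8 h was 1.04% (0.795 to 1.34). *Nodal* (chromosome 10, 61417972 to 61425338), the TGFβ family ligand of the early embryo, had 891, 6 and 7 counts, and no further fall was seen after 4 h at these counts. *Chac1*, an enzyme that breaks down glutathione, had 393 counts at 0 h and 0 counts at 4 and at 8 h, which gives a level of 0.963% at 8 h with 3 counts in its place and an upper 95% limit of 1.19%. *Cited2*, a transcriptional co-regulator of CBP and p300, had 1937, 36 and 14 counts. *Med18* and *Med26*, which encode subunits of the Mediator complex, had 446, 17 and 4 and 856, 17 and 8 counts. The group was thus near its end point at 4 h, where the levels of the 12 genes lay between 0.783% and 5.93%.

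The estimated half-lives of these 12 genes lay between 0.775 h (*Nodal*) and 1.08 h (*Pou3f1*). With an early point of 4 h, most of the fall of such genes had happened before the first measurement, so a shorter half-life than these could not be resolved.

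Of the 12 genes, 6 had the AU-rich 7-mer TATTTAT in their 3'UTR, 6 had the Pumilio 8-mer TGTANATA, and 8 had either. Across all 9438 genes with an annotated coding transcript these letters occurred in the 3'UTR of 25.8% and 23.3%. The matches of *Klf2* and *Nodal* are shown because each of these genes held both motifs, those of *Chac1* and *Med18* because they held the AU-rich letters, and that of *Trib1* because it held the Pumilio letters. They are 30-base windows of the transcript strand, 5′ to 3′, from the GENCODE vM21 transcripts on mm10, with the motif in capitals.
*Klf2*, AU-rich, chr8:72320988-72321017, plus strand: aaacagactgcTATTTATtggaccttagga
*Klf2*, Pumilio, chr8:72321227-72321256, plus strand: ttttataatatTGTATATAagactatgacc
*Nodal*, AU-rich, chr10:61424943-61424972, plus strand: atatatatatgTATTTATttttgatgccat
*Nodal*, Pumilio, chr10:61424911-61424940, plus strand: aaaggctggggTGTATATAtatatatgtat
*Chac1*, AU-rich, chr2:119353773-119353802, plus strand: acttgaaccttTATTTATtgcaccatgttg
*Med18*, AU-rich, chr4:132458826-132458855, minus strand: ttttattccttTATTTATttgttgttttct
*Trib1*, Pumilio, chr15:59656176-59656205, plus strand: tgctttatattTGTATATAcattttacctt
*Zfp296*, *Cited2*, *Orai1* and *Med26* held neither set of letters in the annotated 3'UTR, which says only that these letters are not in this window.

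Immediate early and growth response genes, which code for transcription factors and phosphatases switched on within minutes of a stimulus, had the lowest median of the gene groups under the filter used here. Of 27 listed genes 16 passed the filter, 15 were lost and all 16 fell, with a median level of 5.95% at 4 h and 4.12% at 8 h. *Dusp1*, a phosphatase of MAP kinases, had 447, 7 and 5 counts. *Nr4a1*, a nuclear receptor, had 1196, 68 and 25 counts. *Ier2* had the most counts of the group, 5316, 374 and 291, and its level was 8.18% at 4 h and 6.91% at 8 h. *Maff*, a small MAF transcription factor, was the highest of the group with 182, 70 and 55 counts, which left 38.1% at 8 h. *Fos*, *Egr1* and *Jun* did not pass the filter, and had 15, 130 and 50 counts at 0 h and 0, 10 and 0 at 8 h.

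The 25 inhibitors and targets of the TGFβ, BMP, Nodal, FGF, Wnt and LIF pathways had the next lowest median. Of 20 that passed the filter 13 were lost and 18 fell, with a median of 10.3% at 4 h and 4.99% at 8 h. The order of these groups depended on the filter: with a mean FPKM of at least 10 the signalling genes were lower (6.43% of 9 genes, against 7.21% of 4 immediate early genes), as they were with no FPKM filter (4.82% against 4.86%). Feedback inhibitors of FGF signalling were low throughout. *Dusp6*, the phosphatase that acts on ERK, had 3552, 67 and 47 counts (1.67% at 8 h), and *Spry1*, *Spry2*, *Spry4*, *Spred1* and *Spred2*, which block signalling from receptor to RAF, were at 3.21%, 4.80%, 6.43%, 4.74% and 3.36%. *Socs3*, the feedback inhibitor of LIF and STAT3 signalling, had 4164, 98 and 78 counts (2.36%). *Axin2*, the Wnt target and inhibitor of β-catenin, had 579, 28 and 11 counts (2.40%). *Lefty1* and *Lefty2*, both secreted inhibitors of Nodal, were at 3.06% and 29.6%, so closely related genes did not decay alike. The inhibitory SMAD gene *Smad7* had 1224, 117 and 82 counts and a level of 8.45% (6.68 to 10.6), and *Smad6*, with 79, 2 and 3 counts, did not pass the filter and was at 4.79% (0.968 to 14.5). *Etv4*, a transcription factor induced by FGF, was the exception at the top, with 3277, 3671 and 3244 counts and a level of 125%.

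The 30-base windows of *Dusp1* and *Socs3* are shown as examples of AU-rich matches in feedback genes, and those of *Dusp6* and *Spred2* as examples of Pumilio matches. The *Socs3* window holds a pair of AU-rich 7-mers that overlap.
*Dusp1*, AU-rich, chr17:26506158-26506187, minus strand: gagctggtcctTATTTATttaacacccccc
*Socs3*, AU-rich, chr11:117966138-117966167, minus strand: ctttgcacataTATTTATATTTATactcag
*Dusp6*, Pumilio, chr10:99266789-99266818, plus strand: tatctgattatTGTAAATAtttgatcttca
*Spred2*, Pumilio, chr11:20023150-20023179, plus strand: cggaccatcagTGTAGATAatcagcatgct
Of the 20 signalling genes with a coding transcript 11 held the AU-rich letters, 10 the Pumilio letters and 18 a WT m6A peak. Of 14 immediate early genes these counts were 8, 4 and 14. Over all 9438 genes with a coding transcript 60.6% had a WT m6A peak.

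The proteins that act on such elements were themselves encoded by short-lived mRNAs in part. Of 13 measured AU-rich element binders and BTG/TOB genes, 7 were lost, and their median was 9.97% at 8 h. The 5 of them with a mean FPKM of at least 10 had a median of 71.4%, so the low median rests on the less abundant members. The TTP family members *Zfp36*, *Zfp36l1* and *Zfp36l2*, which recruit deadenylases, were at 5.58%, 9.97% and 3.55%. *Btg1*, *Btg2*, *Tob1* and *Tob2*, adaptors of the CCR4-NOT deadenylase, were at 2.94%, 4.63%, 4.10% and 3.24%. The AU-rich element binders *Elavl1* (HuR) and *Tia1*, in contrast, were at 73.9% and 118%. Of 22 genes for deadenylation, decapping and 5′-to-3′ decay 2 were lost (9.09%) and 11 fell (50%), with a median of 51.2%. Of all genes examined 14.6% were lost and 39.4% fell. *Cnot4* (805, 68 and 23 counts) and the decapping cofactor *Dcp1a* (1689, 176 and 71) were lost. The scaffold of the CCR4-NOT complex, *Cnot1*, was at 56.1%, and *Xrn2* and *Pan2* were at 149%.

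Of 16 measured p53 target genes 8 were lost and 13 fell, with a median of 14.7%. The cell cycle inhibitor *Cdkn1a* had 270, 7 and 6 counts (2.80%), and *Mdm2*, the ubiquitin ligase of p53, had 1669, 227 and 103 (7.79%). *Bbc3* and *Bax* both promote apoptosis, and they were at opposite ends, *Bbc3* (PUMA) at 6.92% and *Bax* at 149%. In the Myc family *Myc* had 2350, 71 and 44 counts (2.36%) and *Mycn* had 3520, 125 and 72 (2.58%). Their partner *Max* was at 14.9%, and *Mlx* at 129%. Of the 9 measured members 4 were lost and 7 fell.

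The pluripotency genes did not decay together. Of the 25 factors and markers, all of which passed the filter, 10 were lost, 17 fell and 0 rose in share, with a median of 58.6% at 4 h and 21.2% at 8 h. The time courses of the FPKM spread from rapid loss to a gain in share. *Klf2*, *Klf4*, *Klf5*, *Tbx3*, *Nr5a2*, *Sox2*, *Zfp42*, *Fgf4* and *Sall4* were among the lost genes. *Klf4* had 4220, 158 and 100 counts and was at 2.99% (2.43 to 3.65), with a half-life of 1.13 h. *Sox2* (chromosome 3, 34650405 to 34652461) had 8244, 493 and 294 counts and was at 4.50% (3.99 to 5.06).

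*Esrrb*, *Tfcp2l1*, *Utf1*, *Gdf3* and *Nanog* formed the slower band. *Esrrb*, an orphan nuclear receptor, had 18281, 9577 and 3065 counts (21.2%), and *Nanog* (chromosome 6, 122707489 to 122714633) had 8577, 4926 and 2763 counts (40.6%, 38.9 to 42.4), with a half-life of 6.50 h. *Pou5f1* (chromosome 17, 35506018 to 35510772), which encodes OCT4, was at the other end, with 16974, 20227 and 24209 counts, 433, 601 and 780 FPKM and a level of 180% (176 to 184). *Dppa5a*, an RNA-binding protein gene of pluripotent cells, had 9475, 11611 and 14680 counts and a level of 195%, and *Lin28a* and *Dppa4* were at 103% and 149%. Relative to the ribosomal protein genes, *Pou5f1* and *Dppa5a* were therefore still above their 0 h level, while *Dppa4* was below it. OCT4 and SOX2 bind DNA together as partners. *Pou5f1* already had the higher FPKM at 0 h (433 against 230 for *Sox2*), and at 8 h the values were 780 and 10.3 FPKM.

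**Figure D2:**
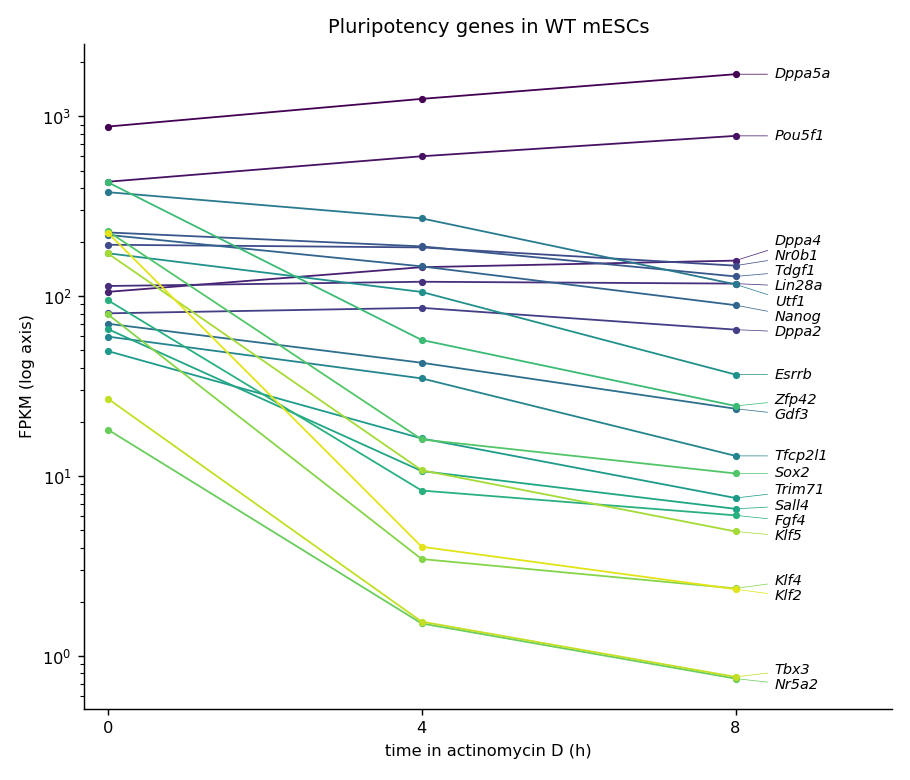
FPKM on a log axis at 0, 4 and 8 h of actinomycin D for pluripotency genes with at least 1000 counts at 0 h, with 1 line per gene and 1 library per time. Nr5a2, Tbx3, Klf2 and Klf4 ended lowest of the genes drawn, and Pou5f1 and Dppa5a were the only lines above 200 FPKM at 8 h, at 780 and 1717 FPKM.

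Genes for chromatin regulators were mostly lost or falling. Of 14 measured H3K4 methyltransferase and CHD remodeller genes 5 were lost and 12 fell, with a median of 16.0%. *Chd7*, *Chd9*, *Chd2* and *Kmt2c* were at 4.92%, 5.15%, 5.21% and 5.69%. *Chd4*, the remodeller of the NuRD complex, was at 121% with 14474, 15062 and 13849 counts, and *Chd3* at 169%. Of 27 Polycomb complex genes 5 were lost and 20 fell, with a median of 29.2%. *Kdm2b*, which brings PRC1 to CpG islands, had 3944, 1066 and 278 counts (8.89%). The catalytic and core subunits of PRC2, *Ezh2*, *Eed* and *Suz12*, were at 38.4%, 34.7% and 26.6%, and the histone-binding *Rbbp4* and *Rbbp7*, which serve other complexes too, were at 182% and 140%.

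Of the 20 m6A writer, reader and eraser genes 6 were lost and 15 fell, with a median of 25.5%. The cytoplasmic readers *Ythdf1*, *Ythdf2* and *Ythdf3*, which bind m6A, were at 6.12%, 5.73% and 16.4%. *Ythdf2* had 2531, 322 and 115 counts. The writer subunits *Mettl3*, *Mettl14* and *Wtap* were at 32.7%, 43.0% and 9.03%, and *Cbll1*, which encodes the writer subunit HAKAI, had 600, 44 and 22 counts (4.63%). The eraser *Alkbh5* was at 7.95%, and the other eraser, *Fto*, at 125%. Of these 20 genes 15 had a WT m6A peak of their own, beside 60.6% of all genes with a coding transcript.

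Zinc finger genes named Zfp, mostly DNA-binding regulators, made up more of the lost genes than any other group examined. Of 403 such genes, 218 passed the filter, and of these 127 (background 14.6%) were lost, 200 fell and 0 rose in share. Their median was 21.0% at 4 h and 10.2% at 8 h. The lowest after *Zfp296* was *Zfp105* with 509, 11 and 5 counts, and the highest was *Zfp277* with 878, 1099 and 1060 counts (152%). *Zfp42* (REX1), the most abundant, had 14111, 1611 and 638 counts, which left 5.71%. Of the 218 genes 7 were above their 0 h level, as were 39.0% of all genes examined. The Zfp genes had few exons for their length: the median was 2.81 transcript exons per kb of coding sequence, against 7.47 over all genes with a coding transcript. A WT m6A peak was present on 197 of 214, beside 60.6% of all genes with a coding transcript. Many of these genes share sequence with close relatives, so single values are less certain than the group.

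Genes of growth and division spanned the full range. Of 18 cyclins 2 were lost (11.1%) and 8 fell (44.4%), with a median of 57.7%. The cyclins T1 and L1, which act with transcription and splicing kinases, were lowest (*Ccnt1* with 2061, 279 and 83 counts, *Ccnl1* with 891, 74 and 42). *Ccna2* and *Ccnb1* of the S and G2/M phases were at 31.2% and 47.4%, and *Ccnb2* and *Ccnd3* at 142% and 140%. Of 29 mitotic spindle and kinetochore genes 3 were lost (10.3%) and 12 fell (41.4%), with a median of 74.8%. Both groups had shares near the 14.6% and 39.4% of all genes examined. *Cenpe*, a kinesin of the kinetochore, had 1122, 200 and 60 counts (6.75%), *Plk1* was at 13.2% and *Aurka* at 16.2%, while *Birc5* (survivin) was at 154%. Of 24 MCM helicase and replication genes only *Gins3* was lost (737, 183 and 54 counts) and 4 fell, with a median of 128%. The helicase subunits *Mcm2* to *Mcm7* lay within 128% to 146% and thus close to each other.

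Of 20 sterol synthesis and uptake genes 4 were lost (20%) and 9 fell (45%), beside 14.6% and 39.4% of all genes examined. *Sqle*, squalene epoxidase, had 1920, 395 and 108 counts (7.10%), and *Cyp51*, lanosterol demethylase, had 1752, 319 and 118, whereas *Pmvk*, an enzyme of the same pathway, was at 156%. The integrated stress response genes also split. Of 18 measured, 7 were lost: *Chac1*, *Trib3*, *Cebpg*, *Sesn2*, *Atf4*, *Cebpb* and *Ppp1r15a*. *Atf4*, the main transcription factor of the response, had 5788, 583 and 251 counts (5.47%). Enzymes of serine and asparagine synthesis on the same list stayed high, with *Asns* at 171%, *Psat1* at 196% and *Phgdh* at 208% (5167, 7008 and 8502 counts).

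Ribosome biogenesis genes had a median of 96.5% over 34 genes, and 4 of them, *Gnl3*, *Wdr43*, *Utp3* and *Brix1*, were lost (11.8%, background 14.6%). *Fbl*, the methyltransferase of box C/D snoRNPs, was at 181%. The medians of 10 SR splicing factor genes, 37 ubiquitin-specific protease genes and 137 solute carrier genes were 69.9%, 46.1% and 54.7%. In these groups *Srsf1* was at 38.0%, *Usp42* at 2.09% with 847, 31 and 14 counts, and *Slc38a2*, an amino acid transporter, at 2.01% with 6020, 195 and 96 counts. Of 17 measured cadherin, protocadherin, collagen and laminin genes 0 were lost and 3 fell, and *Cdh1* (E-cadherin) was at 118%. The groups with a median between 65.7% and 100% lie above 100% when the median gene is the scale, among them the mitotic genes (114%) and the SR genes (106%).

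Several groups of translation, energy metabolism and protein turnover had medians above their 0 h level, as did chaperone, cytoskeletal, replication and histone genes, whereas mitochondrial ribosomal protein genes and the mRNAs of the mitochondrial genome did not. Of 89 measured cytoplasmic ribosomal protein genes 0 fell and 3 rose in share, 88 were above 100%, and the median was 138% at 4 h and 164% at 8 h. *Rps12* was the highest (4708, 8108 and 9146 counts, 245%) and *Rpl34* the lowest (541, 471 and 270 counts, 63.0%), and many of these genes have processed pseudogenes that share their sequence. Of 79 nuclear-encoded respiratory chain and ATP synthase genes 0 fell and 28 rose in share (background 5.76%), with a median of 153% at 4 h and 188% at 8 h. *Ndufa12*, a subunit of complex I, had 318, 480 and 1156 counts (459%), *Ndufa1* had 518, 790 and 1055 (257%), and the lowest, *Atp5s*, had 60, 49 and 44 counts (92.5%). Relative to the ribosomal protein genes the median of the respiratory chain genes was still 113%.

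Of 36 proteasome subunit genes 0 fell and 3 rose in share, with a median of 167%, *Psmd7* being the lowest at 50.4% and *Psmb3*, of the core particle, at 209%. All 20 tRNA synthetase genes lay between 125% (*Cars*) and 196% (*Lars*). Of 62 translation initiation and elongation factor genes 2 were lost and 8 fell. *Eif1a* had 4650, 710 and 176 counts (4.78%) and *Eif1* was at 12.9%, while *Eef1a1*, the most abundant with 1992 FPKM, had 86571, 95428 and 105364 counts (154%) and *Eif3i* was at 213%. Of 76 mitochondrial ribosomal protein genes, in contrast to the cytoplasmic ones, 18 fell and 3 rose in share, with a median of 94.1%, from *Mrps2* at 7.90% to *Mrpl13* at 215%.

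Of 16 glycolysis genes 14 were above 100% and 4 rose in share, with a median of 178%. *Slc2a1*, the glucose transporter GLUT1, and *Hk2*, a hexokinase, stand at the entry of the pathway and were the only members that fell at 8 h, with 6277, 1205 and 293 counts (5.89%) and 9251, 3130 and 988 (13.5%). The other hexokinase, *Hk1*, was at 111%, *Pkm* at 179% and *Pgk1* at 216%. Of 20 chaperone genes the heat-inducible *Dnajb1* and *Hspa1b* were lost (3.41% and 9.98%), *Hspa8* was at 54.1%, and the subunits of the chaperonin CCT lay between 126% and 191%. The 13 actin and tubulin genes had a median of 131%, with *Actb* at 132% (25048, 25446 and 26210 counts) and *Tubb4b* lowest at 70.0%. Of 69 replication-dependent histone genes 14 passed the filter in these polyadenylated RNA libraries, 0 fell and 7 rose in share, with a median FPKM of only 3.40 at 0 h and from 22 to 162 counts per gene at that time.

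**Figure D3:**
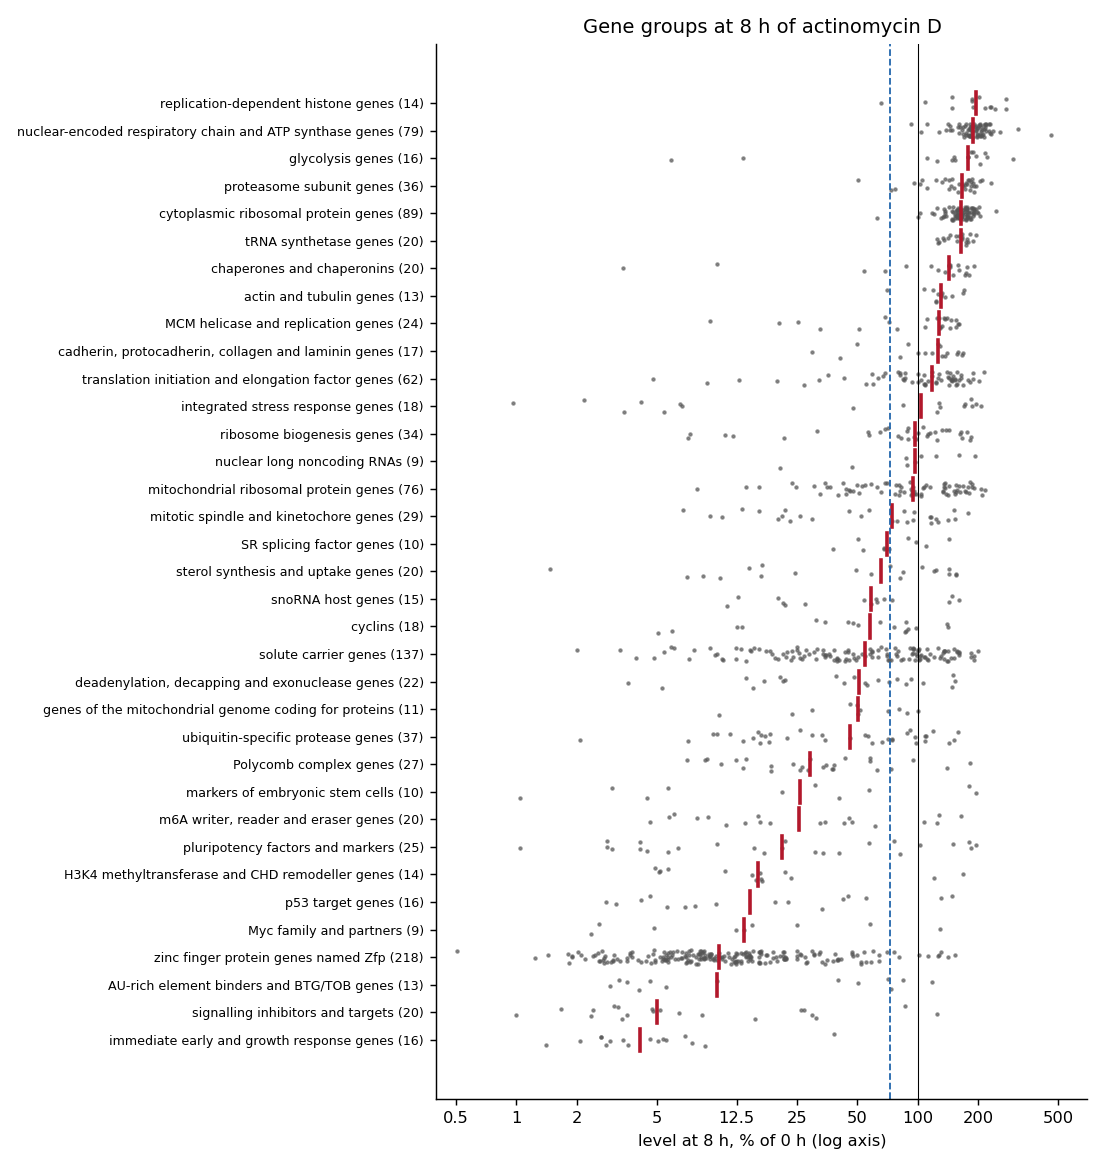
Level at 8 h as a percent of 0 h on a log axis for each gene group, with the number of genes that passed the filter in parentheses. Each point is a gene, red bars are group medians, the dashed line is the median of all genes examined (72.8%) and the solid line is 100%. Immediate early genes, signalling inhibitors, AU-rich element binders with BTG/TOB genes, and Zfp genes lie at the bottom. Respiratory chain and histone genes lie at the top.

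Noncoding transcripts were measured only where they are polyadenylated or were carried along. Of 9 measured nuclear long noncoding RNAs 2 fell (*Tug1* at 20.7% and *Neat1* at 46.9%). *Malat1*, which lies in nuclear speckles, had 1765, 4235 and 2681 counts, so that its level was 279% at 4 h and 192% at 8 h. *Meg3*, from the imprinted Dlk1-Dio3 region, was at 179% at 4 h and 160% at 8 h. Of 15 host genes of snoRNAs 1 was lost (6.67%) and 6 fell (40%), beside 14.6% and 39.4% of all genes examined. Most of the fall was over at 4 h, as the medians of 42.1% at 4 h and 58.5% at 8 h show. *Gas5* had 569, 129 and 124 counts (26.4% and 27.5%), and *Snhg5* had 914, 135 and 81 (17.2% and 11.2%).

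Transcripts of the mitochondrial genome, which its own RNA polymerase makes as long precursors that are cut into single RNAs, differed widely from each other. *mt-Co1*, a subunit of complex IV, had 53887, 49829 and 42744 counts and remained at 100% (98.8 to 101). *mt-Nd1* of complex I had 18268, 6586 and 3411 counts and was at 23.6% (22.7 to 24.4). *mt-Cytb* of complex III had 22543, 12281 and 5304 counts (29.7%, 28.8 to 30.6). Their intervals do not overlap, although these genes are transcribed together from the heavy strand. *mt-Nd6*, the light-strand mRNA, was at 70.7%, and *mt-Nd2*, *mt-Nd4* and *mt-Nd5* lay between 45.8% and 50.3%. *mt-Co2*, *mt-Atp6* and *mt-Co3* were at 80.9%, 51.7% and 88.2%, with only 270, 261 and 266 counts at 0 h. The reason for these low counts beside *mt-Co1* was not tested. Of 11 measured protein-coding genes of this genome 1 was lost (*mt-Nd4l*, 86, 13 and 7 counts) and 5 fell (45.5%, background 39.4%). Of these *mt-Nd2* was at the border, at 49.9% (48.2 to 51.8). Of 79 nuclear genes for the same complexes 0 fell.

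The mitochondrial ribosomal RNAs went the other way. *mt-Rnr1* had 1642, 8247 and 14105 counts, a level of 1084% (1030 to 1141), and *mt-Rnr2* had 1775, 2666 and 6919 counts (492%, 467 to 519). *mt-Rnr1* was the highest of the genes named by rule. The authors removed reads that match ribosomal RNA before alignment, and whether these 2 RNAs were among the removed sequences is not given in the sources used here, so the counts left are those that passed that step.

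**Figure D4:**
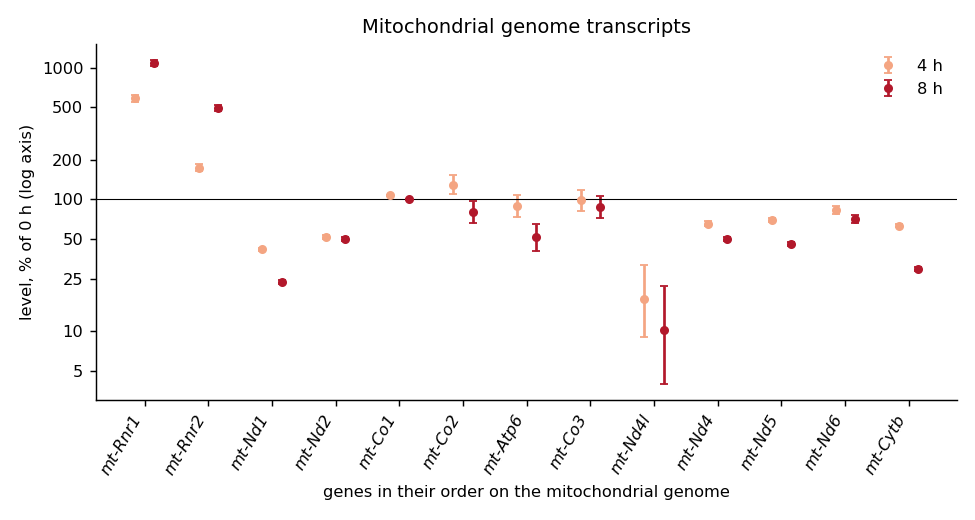
Level at 4 h (light) and 8 h (dark) as a percent of 0 h on a log axis for the transcripts of the mitochondrial genome, in gene order, tRNAs left out. Error bars are exact 95% intervals from the counts and cover counting error only. Both rRNAs lie above 100% at both times, mt-Co1 is at 100% at 8 h, and mt-Nd1, mt-Nd4l and mt-Cytb are under 30% at 8 h.

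A few genes bent away from a steady course between 0, 4 and 8 h, measured as the log2 level at 4 h less the mean of the log2 levels at 0 and 8 h. Among genes with at least 100 counts at both 0 and 8 h, *Gapdh* lay lowest at 4 h by this measure, with 995, 242 and 2357 counts, hence 28.3% at 4 h and 299% at 8 h. At 13.8 FPKM at 0 h it was also below the median of the 16 glycolysis genes (105 FPKM). *Gapdh* has many processed pseudogenes and the authors kept reads that map to a single place, so its counts stand for an uncertain part of its mRNA, and the part of the pseudogenes in these values was not tested. *Spry2*, *Klf4*, *Jade1* and *Ier2* were also among the lowest, since they fell to between 4.36% and 8.18% by 4 h and then by less, with no return by 8 h. *Jade1*, for example, had 8657, 386 and 209 counts. The highest at 4 h by this measure were *Gm26917*, *Gm11585*, *Malat1*, *Usp9x*, *Atm* and *Immp1l*. *Gm26917* is annotated as a long noncoding RNA and *Gm11585* as a processed pseudogene. *Usp9x*, a deubiquitinase, had 6796, 4675 and 884 counts (80.0% and 16.4%), so that it did not peak at 4 h but fell little before it and more after it. *Atm*, the DNA damage kinase, had 1566, 1490 and 432 counts (111% and 34.8%). *Usp9x* and *Atm* are long genes with 45 and 64 exons in the annotated coding transcript.

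The most abundant transcripts mostly kept or gained share. Of the 10 genes with the highest FPKM at 0 h, *mt-Cytb* and *mt-Nd1* fell and *mt-Co1* stayed at 100%. *Eef1a1*, *Hsp90ab1*, *Rplp1*, *Rpl8*, *Ftl2-ps*, *Gm23935* and *Gm8730* lay between 140% and 189% at 8 h. *Ftl2-ps* and *Gm8730* are annotated as processed pseudogenes and *Gm23935* as a miRNA. The 6410 FPKM of *Gm23935* at 0 h, the highest value, rests on an exon length of 57 bases. *Hsp90ab1*, a constitutive heat shock protein, had 82042, 88220 and 94475 counts (145%), and *Rplp1*, of the ribosomal stalk, had 12560, 14680 and 17043 (171%).

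The genes that rose most in share included, beside *mt-Rnr1*, *mt-Rnr2*, *Ndufa12* and *Gapdh*, many annotated pseudogenes. Of the 602 genes 380 are annotated as protein coding and 189 as pseudogenes (31.4%), whereas pseudogenes are 622 of all 10448 genes examined. The pseudogene *Rpl17-ps10* had 1826, 4581 and 4327 counts (299%) and its parent-named gene *Rpl17* had 5133, 2870 and 4155 (102%). *Sumo2*, a ubiquitin-like modifier, had 2185, 3596 and 4994 counts (288%, 274 to 303). When only protein-coding genes were kept, 380 genes (4.02%) rose in share and 1470 (15.6%) were lost.

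Features of the transcripts differed with the level at 8 h. For 9438 genes with an annotated coding transcript, the one with the longest coding sequence was used. Exons per kb are all exons of that transcript, untranslated ones included, per kb of its coding sequence. Lost genes had a median of 4.08 exons per kb, and genes between 1/8 and 1/2 had 6.57. Genes between 1/2 and 2 had 8.33, and genes that rose in share had 9.73. The median level at 8 h was 10.9% in the lowest 10% of genes by exons per kb (0.295 to 3.09) and 134% in the highest 10% (11.1 to 32.3), and 54.7% and 2.97% of these genes were lost. Across genes Spearman's rho between exons per kb and level was 0.52 (n = 9438), given as a description since genes are not replicates and share the same 3 libraries. The median 3'UTR was 1384 bases in lost genes, 1223, 716 and 359 in the next classes. Length of the coding sequence (rho −0.27), GC content at the third codon position (0.12) and the FPKM at 0 h (0.22) were less closely related to the level.

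The m6A peaks came from other libraries of the same WT cells, in which RNA bound by an antibody against m6A was compared with input RNA, and the authors deposited 1 list of peaks for the genotype. A peak was present on 93.9% of lost genes (95% interval 92.5 to 95.0), 78.6% of genes between 1/8 and 1/2, 46.1% of genes between 1/2 and 2, and 13.6% (10.5 to 17.4) of genes that rose in share. Genes with 0, 1, 2 and 3 peaks had median levels at 8 h of 121%, 54.7%, 25.9% and 16.1%, and those with 4 or more had 15.9%. Among genes with 5 to 20 FPKM at 0 h, which narrows the difference in detection between abundant and rare transcripts, the median was 104% without a peak and 40.1%, 21.5% and 13.4% with 1, 2 and 3 peaks. The median levels thus stepped down with each added peak up to 3 and were alike for 3 and more. Length was not held within a window for these peak counts. The median exon length was 4654.5 bases in lost genes and 4987, 3891.5 and 1971 in the next classes. The part of length in these steps was not tested.

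Exon density and m6A peaks were themselves related. In the lowest 10% of genes by exons per kb 92.7% had a peak, and in the highest 10% of genes 28.9%. Among the 5716 genes with a peak rho between exons per kb and the level at 8 h was 0.49, and among the 3722 without a peak it was 0.24. The 69 genes of the lowest 10% without a peak had a median level of 93.7%, and those with a peak had 10.1%. In the highest 10% these medians were 146% and 97.3%, so genes with a peak had the lower median at both ends, as they did in every group between them.

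**Figure D5:**
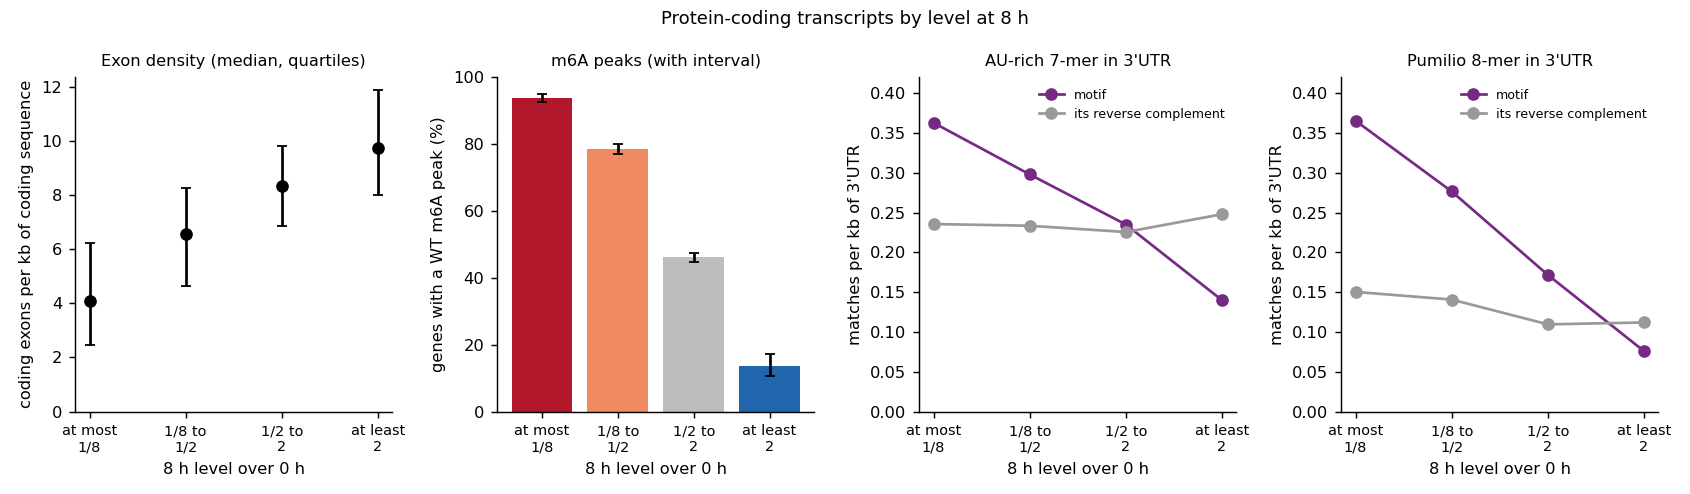
Features of coding transcripts in the 4 classes of level at 8 h (x axis). From left to right, the first panel shows exons of the transcript per kb of coding sequence (points are medians, bars the quartiles). Its axis label reads coding exons, but untranslated exons were counted too. The next panel shows the percent of genes with a WT m6A peak (bars start at 0, error bars are 95% Wilson intervals). The last panels show matches per kb of 3'UTR of the AU-rich and Pumilio motifs beside their reverse complements. Exon density goes from 4.08 to 9.73, the share with a peak from 93.9% to 13.6%, and both motifs go down while their reverse complements change less.

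The motifs also differed with the level. TATTTAT was found in the 3'UTR of 41.8% of lost genes (39.3 to 44.4), 32.9%, 19.4% and 7.31% (5.11 to 10.4) of the genes in the classes that follow. TGTANATA was found in 41.3%, 31.6%, 15.7% and 4.70%. Since 3'UTRs of lost genes were longer, matches per kb and the reverse complement of each motif, which has the same GC content but swaps A and T, are given beside them. TATTTAT occurred 0.363 times per kb in lost genes and 0.140 in genes that rose in share, and its reverse complement ATAAATA 0.236 and 0.248 times. TGTANATA occurred 0.365 and 0.0760 times per kb, and its reverse complement TATNTACA 0.150 and 0.112. Within 3'UTRs of 1000 to under 2000 bases, 39.6% of 409 lost genes and 26.5% of 1117 genes between 1/2 and 2 held TATTTAT, and 41.1% and 20.1% held TGTANATA.

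Levels stepped down with the number of matches as well. Genes with 0, 1, 2 and at least 3 Pumilio matches had median levels at 8 h of 82.3%, 39.3%, 21.6% and 14.1%. For the AU-rich 7-mer these medians were 80.9%, 42.6%, 30.2% and 20.6%. Over all genes the reverse complements stepped down too. The AU-rich one gave medians of 74.5%, 53.2%, 37.5% and 33.1%, and the Pumilio one 73.3%, 41.3%, 29.3% and 19.3%. Within 3'UTRs of 1000 to under 2000 bases the medians for the Pumilio motif were 68.5%, 39.5%, 21.2% and 11.5% (31 genes), and for the AU-rich motif 63.5%, 47.7%, 36.1% and 15.1% (41 genes). The reverse complement of the AU-rich motif gave 59.8%, 45.7%, 46.5% and 66.3% in the same window, with no steady order, and that of the Pumilio motif 60.3%, 45.7%, 25.1% and 14.3% with only 55 and 5 genes at the last 2 numbers. The reverse complement of the Pumilio motif thus also stepped down, and at 1 match, where 293 genes held it, its median of 45.7% was above the 39.5% of the motif itself.

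Genes without a WT m6A peak followed the Pumilio count too: their medians were 130% with 0 matches, 85.1% with 1, 54.1% with 2 and 30.2% with at least 3 (47 genes). For the AU-rich 7-mer in the same genes the medians were 129%, 92.4%, 68.0% and 73.8% (72 genes), so the last step did not go down. Neither a window of 3'UTR length nor the reverse complements were examined in these genes. Of the 3 features, peak, AU-rich match and Pumilio match, 2506 genes had none and a median level of 135%, 4205 had 1 of 3 and 64.5%, 2029 had 2 of 3 and 30.2%, and 698 had all 3 and 15.1%. Of the 2506 genes with none, 1.24% were lost and 11.7% rose in share, and of the 698 genes with all 3, 44.0% were lost and 0% rose in share. The 31 genes that were lost without any of these features included *Fam72a* (235, 10 and 4 counts), *Lefty1* (700, 47 and 17) and *Clk1*, a splicing kinase (1226, 138 and 52), which were named after their values were seen.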

How the data were processed

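RNA-seq libraries of WT E14Tg2a mESCs at 0, 4 and 8 h of actinomycin D were analysed. The authors removed reads matching rRNA with bowtie2 (version 2.2.6), mapped what was left to mm10 with hisat2 and retained uniquely mapped reads of high quality (Picard 2.16.0 and SAMtools 0.1.09, as the submitters' processing notes name them). The values deposited by the authors are raw counts per gene, with exon length, and the counting tool and annotation are not given in the sources used here. The authors also deposited WT m6A peaks, called with MACS2 from IP over input libraries with a fold enrichment, of which only position was used.

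FPKM, levels, half-lives and exact (Clopper-Pearson) intervals of count ratios were computed with Python 3.11.15, numpy 2.4.6, pandas 2.3.3 and scipy 1.17.1, and tested on simulated data. Counts under 3 were set to 3, so such levels are those of 3 counts. TMM factors came from edgeR 4.0.16. Shares have Wilson intervals, and medians have order-statistic intervals. Transcript features and motif windows came from GENCODE vM21, and windows were read with pysam 0.24.0 and matched the genome of the same build. A peak was assigned to a gene when its summit lay in an exon. Plots were drawn with matplotlib 3.10.9.

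Genes, gene lists and comparisons were chosen with earlier results of these data known. Named genes are the 12 lowest (at least 300 counts at 0 h) and 12 highest (at least 300 at 8 h) levels at 8 h, the 10 highest FPKM at 0 h, the 6 lowest and 6 highest at 4 h against the mean of 0 and 8 h on a log2 scale (at least 100 counts at 0 and 8 h), members of short lists, the extremes of longer ones, and *Klf4*, *Smad6* and *Smad7*. A few genes that these rules name are not reported here. Levels by number of peaks and of motif matches were added once the data had been seen. No model was fitted, because each time has 1 library. Scaling, filter and pseudocount were varied.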

Additional observations from a re-analysis of the deposited data

How the results depend on the processing

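No paired analysis was possible because each time has 1 library. Scaling to the summed ribosomal protein genes gave 2317 lost genes, 37 that rose in share, a median level of 43.8% and a median half-life of 4.90 h. TMM factors gave 2320 genes that rose in share and a median level of 101%, and scaling to the median gene gave 964 lost genes, 2805 that rose in share and a median of 111%. With a mean FPKM of at least 10, 238 genes were lost, 867 fell, 392 rose in share, the median level was 118% and the half-life 7.21 h. With no FPKM filter the median level was 64.1% and the half-life 4.04 h. With a pseudocount of 1 FPKM, 379 genes were lost, the median level was 77.4% and the half-life 5.67 h. With the filter applied to the 0 h library alone, an alternative added after seeing the data as was the next, these were 62.2% and 3.94 h. That 0 h filter kept 11196 genes, of which 1940 (17.3%) were lost and 544 (4.86%) rose in share. Protein-coding genes alone gave 380 that rose in share and a median level of 68.1%. The half-life was 5.02 h without the 4 h library and 4.75 h without the 8 h library. Of the alternatives for the 3 counts, the median level and the half-life, 17 stayed within 1.5 times the count or within the interval of the median and 25 did not. The order of the medians of 35 gene groups was the same under the 3 scalings (rho 1). This was fixed in advance, because each scaling multiplies all levels of a library by the same factor. With a mean FPKM of at least 10, rho with the main order was 0.94. With that filter the medians of the p53 target, sterol, Zfp and ubiquitin-specific protease genes went from 14.7%, 65.7%, 10.2% and 46.1% to 42.2%, 105%, 21.6% and 93.3%. Counts under 3 were set to 3, which applied to 33 genes at 8 h. The single library per time sets the main limit: spread between cultures is unknown.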

Other observations

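Gene families grouped by the shared start of their symbols, a grouping made after the data were seen, gave 79 families with at least 12 genes that passed the filter. The Krüppel-like factors (Klf), zinc finger proteins that bind GC-rich promoter sequence, had the lowest median, 5.09% at 8 h. All 13 measured members fell and 12 were lost, from *Klf2* at 1.04% to *Klf12* at 20.4% (161, 60 and 26 counts). *Klf9* had 2309, 154 and 60 counts (3.28%), and *Klf3* had 2580, 335 and 119 (5.82%). The BTB zinc finger genes (Zbtb) were next, with a median of 8.44%, 17 of 29 lost and 27 fallen. *Zbtb34* had 1445, 113 and 60 counts (5.24%), and the only member above 100% was *Zbtb8os*, named for its place beside *Zbtb8* on the opposite strand, with 821, 1090 and 1283 counts (197%).

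Some families held both fates. Among 15 dual-specificity phosphatases 7 were lost, with *Dusp7* at 1.96% and *Dusp4* at 4.25%, while *Dusp9*, a phosphatase of ERK that is abundant in these cells, had 3907, 5047 and 5659 counts (183%). Among 22 tripartite motif genes (Trim) 7 were lost, with *Trim13* at 2.46% (666, 32 and 13 counts), while *Trim28* (KAP1), the co-repressor that many KRAB zinc finger proteins recruit, had 45420, 49049 and 48953 counts (136%). Kinesins fell in 18 of 26 cases, from *Kif20b* at 3.51% (1584, 201 and 44 counts) to *Kif3a* at 129%. Centrosomal genes named Cep fell in 21 of 28 cases but 0 were lost, with a median of 31.6%, whereas 14 intraflagellar transport genes (Ift), which build the cilium, ran from 55.1% to 172% and 0 fell. At the top, beside respiratory chain, ribosomal and histone families, were aldehyde dehydrogenases (Aldh, median 169% over 14 genes, *Aldh2* with 6980, 9365 and 10789 counts) and FK506-binding proteins (Fkbp, median 167% over 13 genes, *Fkbp8* with 5756, 7861 and 10029 counts).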
